A study of Mus musculus with 4 samples.

Results

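Open chromatin at 37 endothelial and vascular genes was examined in 4 whole skeletal muscles of wild-type C57BL/6 mice. The members are genes of blood vessel lining cells and the factors that act on them, and they were found by name: a peak belongs to a member when the deposited list gives that gene as the nearest one. The 4 lists name 17157 genes in all, and each of the 37 members was named in at least 1 list. The muscles were the extensor digitorum longus (EDL) and the quadriceps (Quad), both rich in fast glycolytic fibres, the slow oxidative soleus (Sol), and the diaphragm (Dia), the main breathing muscle. The labels name no treatment. By the study's methods the mice were C57BL/6J males, young adult when obtained, and their age at harvest of these muscles is not stated there. ATAC-seq was used, an assay in which a transposase cuts and tags accessible DNA, on about 30 mg of frozen, pulverised muscle. Each muscle gave 1 library, which the labels call pooled, and how many samples each pool holds is not stated for these libraries. All values below therefore describe these libraries, no test between muscles was possible, and the intervals given are 95% intervals for counting error only.

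Blood vessels run between all muscle fibres, and the endothelial cells that line them carry receptors for growth factors such as VEGF and the angiopoietins, which steer vessel growth and leakiness. Endothelial identity is held by transcription factors of the ETS, SOX and GATA families, which bind enhancers near genes for receptors and cell junctions. Oxidative muscles are known for denser capillary beds than glycolytic ones. Whole muscle mixes the nuclei of fibres with those of endothelial cells, mural cells, fibroblasts, leukocytes and satellite cells. In such bulk tissue, fewer endothelial nuclei and less open chromatin per nucleus cannot be told apart.

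The regions below show what these data hold at the sequence level. They are 200-bp windows centred on merged peak regions of members, outside promoters and exons, read from GRCm38 (mm10). A merged region joins peaks of the 4 lists that overlap by at least 1 bp. Cdh5, Aplnr, Klf2 and Tek were chosen because their regions had a peak in all 4 lists and at least 2 matches to the ETS letters. The Erg region had a peak in 3 lists and 3 matches, and the Egfl7 and Flt1 regions were the best ranked of those genes with a match. Capitals mark the ETS letters, CAGGAAG or CCGGAAG on either strand, so that CTTCCTG and CTTCCGG also count.
Cdh5 chr8:104095690-104095889 (+ strand): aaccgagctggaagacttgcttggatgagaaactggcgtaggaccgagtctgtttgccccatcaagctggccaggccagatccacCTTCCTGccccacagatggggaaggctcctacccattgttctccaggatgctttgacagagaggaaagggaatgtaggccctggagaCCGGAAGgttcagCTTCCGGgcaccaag
Aplnr chr2:85129656-85129855 (+ strand): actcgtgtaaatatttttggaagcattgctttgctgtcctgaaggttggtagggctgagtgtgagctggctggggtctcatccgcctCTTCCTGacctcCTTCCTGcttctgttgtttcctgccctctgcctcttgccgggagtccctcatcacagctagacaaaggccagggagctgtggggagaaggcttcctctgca
Klf2 chr8:72295747-72295946 (+ strand): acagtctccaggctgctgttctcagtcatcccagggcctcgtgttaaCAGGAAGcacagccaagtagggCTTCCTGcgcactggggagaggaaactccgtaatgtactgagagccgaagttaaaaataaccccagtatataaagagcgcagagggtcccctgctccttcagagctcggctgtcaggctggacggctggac
Tek chr4:94746532-94746731 (+ strand): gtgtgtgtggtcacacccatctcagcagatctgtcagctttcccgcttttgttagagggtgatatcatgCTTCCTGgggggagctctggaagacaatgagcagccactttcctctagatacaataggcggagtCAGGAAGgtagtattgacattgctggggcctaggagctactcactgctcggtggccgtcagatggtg
Erg chr16:95449422-95449621 (+ strand): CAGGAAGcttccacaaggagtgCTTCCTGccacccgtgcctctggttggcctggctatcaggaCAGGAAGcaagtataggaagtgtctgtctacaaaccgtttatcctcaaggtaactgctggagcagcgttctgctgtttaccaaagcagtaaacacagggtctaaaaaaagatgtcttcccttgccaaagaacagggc
Egfl7 chr2:26578460-26578659 (+ strand): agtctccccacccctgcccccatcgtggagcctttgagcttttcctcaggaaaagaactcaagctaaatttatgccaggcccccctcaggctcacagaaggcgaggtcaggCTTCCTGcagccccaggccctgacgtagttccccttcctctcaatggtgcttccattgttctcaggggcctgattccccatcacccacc
Flt1 chr5:147657918-147658117 (+ strand): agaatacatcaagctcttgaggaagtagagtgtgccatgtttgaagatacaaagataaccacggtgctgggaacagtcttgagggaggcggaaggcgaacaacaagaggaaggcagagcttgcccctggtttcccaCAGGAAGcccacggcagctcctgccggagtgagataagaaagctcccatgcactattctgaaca

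These windows lie at varied places around their genes, and each distance is that of the best-scored peak in the region. The Cdh5 window is 5866 bp upstream of the transcription start site (TSS) of the VE-cadherin gene, inside intron 1 of a non-coding transcript, and holds 3 matches. The Aplnr window is intergenic, 6630 bp upstream of the apelin receptor gene. The Klf2 window is intergenic and 23188 bp upstream. The Tek window is in intron 1 of the angiopoietin receptor gene, 7430 bp downstream of its TSS. The Erg window is in intron 2, 9837 bp from the TSS, the Egfl7 window is intergenic and 2513 bp upstream, and the Flt1 window is in intron 10, 67884 bp from the TSS. A match describes letters only and does not show that a factor binds there.

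The first question was how much of each list belongs to vascular genes, given that the lists differ in length. The members held 128 of the 30136 EDL peaks, 158 of the 40337 Quad peaks, 132 of the 28784 Sol peaks and 78 of the 21582 Dia peaks. The member share was 0.425% for EDL (Wilson interval 0.357% to 0.505%), 0.392% for Quad (0.335% to 0.458%), 0.459% for Sol (0.387% to 0.544%) and 0.361% for Dia (0.290% to 0.451%). Sol had the highest share of the whole list and Dia the lowest, but the lists differ in promoter content. Outside promoters the member share was 0.536% for EDL, 0.439% for Quad, 0.561% for Sol and 0.513% for Dia, with Quad lowest. The whole-list difference between Sol and Dia was 0.097 percentage points, with an interval from -0.017 to 0.208 (Newcombe). For each of the 6 pairs the whole-list interval included 0. Vascular peaks were thus more numerous in longer lists, apart from Sol, which had more than the longer EDL list. No difference in whole-list share was resolved at this depth.

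When every list was cut to its top 20000 peaks by score, Sol had the most member peaks with 92, followed by EDL with 81, Quad with 79 and Dia with 75. The difference between Sol and Dia was then 0.085 points, with an interval from -0.042 to 0.213. In the upper 50% of each list by score, the share in Dia was 0.222% (0.150% to 0.331%), which lay below its whole-list interval. Promoter peaks rank high in the Dia list (median percentile 74.1), and they were 41.3% of all its peaks but 16.7% of its member peaks. This cut therefore changes the mix of classes, and a share outside promoters was not computed for it. The score is the authors' tag count at a peak, scaled by library size, and scores below 10 fell on steps that correspond to single tags, for 96.0% of them in EDL and 100% in the other lists. On those steps the lowest peaks held between 25 tags in Quad and 36 in Dia, so a missing peak means only that no peak passed the threshold of that library.

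**Figure D1:**
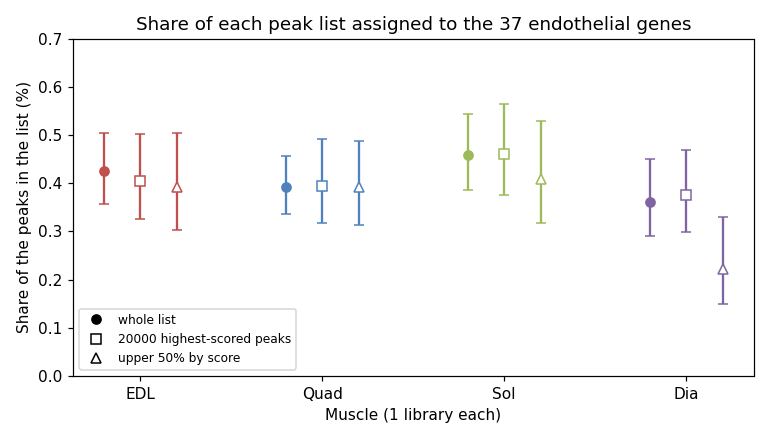
Share of each peak list, in percent, that is assigned to the 37 endothelial genes, for the whole list, its 20000 highest-scored peaks and its upper 50%. Bars are 95% Wilson intervals over peaks of 1 library, and they overlap between muscles for the whole lists, with Sol highest at 0.459% and Dia lowest at 0.361%.

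Peaks were listed for most vascular genes in every muscle. Of the 37 members, 33 had at least 1 peak in EDL, all 37 in Quad, again 33 in Sol, and 28 in Dia. Over all 21900 protein-coding genes the share with a peak was 54.7% for EDL, 60.2% for Quad, 54.5% for Sol and 51.2% for Dia. 25 of the members had a peak in all 4 lists, as did 44.9% of all protein-coding genes, and another 8 members had one in 3 lists, 3 in 2 lists and 1 in a single list. The promoter, in the authors' annotation from 1 kb before to 100 bp past a TSS, held a peak for 16 members (EDL), 25 (Quad), 22 (Sol) and 12 (Dia). The same shares over all protein-coding genes were 37.7%, 41.3%, 37.6% and 37%. A promoter peak in all 4 lists was found for 7 members and for 30.2% of all protein-coding genes.

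**Figure D2:**
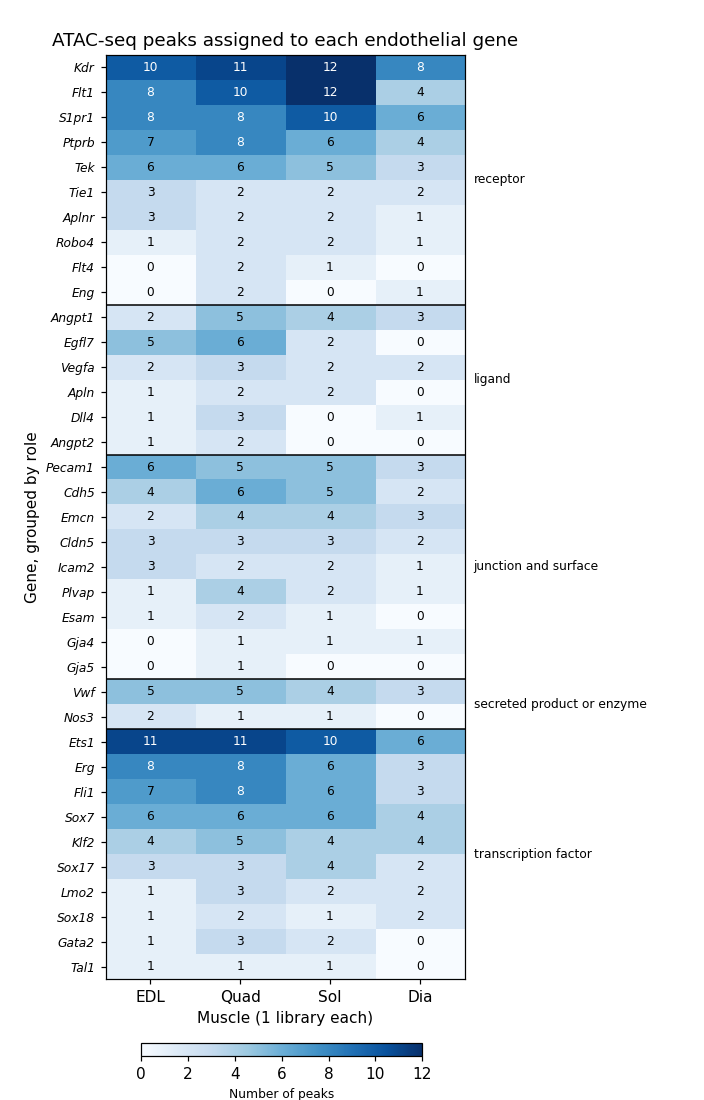
Number of ATAC-seq peaks assigned to each of the 37 genes (rows, grouped by role) in each muscle (columns, 1 library each), with the colour scale running from 0 to 12 peaks. Kdr, Flt1, S1pr1 and Ets1 hold the most peaks, and the Dia column has 9 genes at 0.

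The 10 receptor genes held 46 EDL peaks, 53 Quad peaks, 52 Sol peaks and 30 Dia peaks. Kdr, the main signalling receptor for VEGF, had 10, 11, 12 and 8 peaks in the order EDL, Quad, Sol and Dia, the most of any member in total. Flt1, a VEGF receptor that largely acts as a trap for its ligand, had 8, 10, 12 and 4. S1pr1, the sphingosine-1-phosphate receptor that tightens the vessel wall, had 8, 8, 10 and 6. These 3 genes had their highest number in Sol and their lowest in Dia. With 20000 peaks per list the numbers were 3, 3, 8 and 6 for Kdr, 8, 5, 5 and 4 for Flt1, and 7, 3, 8 and 6 for S1pr1, so Dia was no longer lowest for Kdr and S1pr1. Tek, the angiopoietin receptor, had 6, 6, 5 and 3 peaks, and its relative Tie1 had 3, 2, 2 and 2. Ptprb, a phosphatase that restrains Tek, had 7, 8, 6 and 4. Aplnr had 3, 2, 2 and 1, and Robo4, an endothelial guidance receptor, had 1, 2, 2 and 1.

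At the promoter of Kdr (chr5:75978330-75978736) a peak was listed in every muscle, with scores of 5.48 (EDL), 7.17 (Quad), 5.93 (Sol) and 7.35 (Dia). As score percentiles within each list these were 31.6, 55.7, 35.8 and 48.7, so the Kdr promoter stood above the middle of the list in Quad only. Among promoter peaks alone it was at 9.87, 19.9, 11.7 and 20.1. The Tie1 promoter (chr4:118489719-118490202) was at percentiles 73.9, 66.6, 71.1 and 53.4 in the same order, lowest in Dia. The S1pr1 promoter (chr3:115714916-115715239) was at 67.8, 82.9, 77.0 and 77.2, the highest of the receptor promoters in Quad, Sol and Dia. Flt1 had promoter peaks at 2 places that do not overlap, 7 bp downstream of its TSS in EDL (percentile 51.6) and 376 bp upstream in Quad (45.0) and Sol (38.2). The Ptprb promoter was at 55.2 in EDL, 43.4 in Quad and 51 in Sol. The Robo4 promoter was listed in Quad (52.1) and Sol (39.3), the Tek promoter in Quad at 25.8 and the Aplnr promoter in Sol at 38.2.

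Away from promoters, Kdr, Flt1 and Tek had regions listed in all 4 muscles. A Kdr region in the final exon, annotated as the 3' UTR (chr5:75933491-75933957), scored 7.60 (EDL), 10.8 (Quad), 11.3 (Sol) and 7.76 (Dia). It was thus higher in Quad and Sol than in EDL and Dia. The Tek intron 1 region shown above scored 11.2, 11.9, 11.6 and 8.36, with Dia lowest. The Flt1 region 25907 bp upstream of the TSS scored 8.95, 9.99, 11.2 and 7.76, again with Dia lowest. The Aplnr region shown above scored 8.85, 8.07, 11.4 and 7.86, and Sol was the highest library. That merged region (chr2:85129465-85130045), the Kdr one and the Tie1 promoter region are much longer than single peaks, which span 188 to 232 bp. Their peaks from different muscles thus cover partly different bases, and their scores are not those of 1 identical site.

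Flt4, the VEGF receptor of lymphatic vessels, was listed with 2 peaks in Quad and 1 in Sol. Both regions lay in intron 1 and near the bottom of their lists, at percentiles 4.70 and 15 in Quad and 9.81 in Sol. Eng, the TGF-beta co-receptor endoglin, had peaks in Quad and Dia alone. Its promoter was at percentile 55.7 in Quad and 48.7 in Dia. The Quad peak 8452 bp upstream of Eng overlapped a peak that the Dia list assigns to the neighbouring gene Ak1, so nearest-gene assignment divided that region between genes.

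The 6 ligand genes held 12 EDL peaks, 21 Quad peaks, 10 Sol peaks and 6 Dia peaks. Vegfa, which muscle fibres also make, had 2, 3, 2 and 2 peaks. Its promoter peak was listed in Quad alone (chr17:46032319-46032507), with a score of 12 at percentile 82.5. Angpt1, which mural cells supply to Tek, had 2, 5, 4 and 3 peaks and none at its promoter. Angpt2, the stored antagonist of Angpt1, had 1 peak in EDL and 2 in Quad, including its promoter at percentile 25.8.

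Egfl7, a secreted vessel factor, showed the widest spread in this role, with 5 peaks (EDL), 6 (Quad), 2 (Sol) and 0 (Dia). Its promoter (chr2:26583693-26584003) was at percentile 66.4 in EDL and 74.0 in Quad. Its region 2513 bp upstream scored 8.47 in EDL, 9.09 in Quad and 11.8 in Sol, and the one 9048 bp upstream scored 8.95, 9.09 and 10.1. No peak of the Dia list was assigned to Egfl7. Dll4, the Notch ligand of arterial and sprouting cells, had 1 peak (EDL), 3 (Quad), 0 (Sol) and 1 (Dia), and its promoter was listed in Quad (43.4) and Dia (46.4). Apln, the ligand of Aplnr, had 1, 2, 2 and 0 peaks, all intergenic and at percentiles of 36.4 or lower.

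Junction and surface genes held 20 EDL peaks, 28 Quad peaks, 23 Sol peaks and 13 Dia peaks over 9 genes. Pecam1, an adhesion molecule found on all endothelium, had 6, 5, 5 and 3 peaks. Its highest region lay in intron 12 (chr11:106674719-106674951), at percentiles 78.8, 90.6, 89.0 and 73.5. This region ranked above the Pecam1 promoter, which was at 46.6 in EDL, 52.1 in Quad and 41.6 in Sol and was not listed in Dia. Cdh5 had 4, 6, 5 and 2 peaks, and its promoter (chr8:104101503-104101769) was at 56.1, 69.0 and 61.8 in EDL, Quad and Sol. No Cdh5 promoter peak was listed in Dia.

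The remaining genes of this role had lower numbers. Cldn5, the claudin of tight vessel walls, had 3, 3, 3 and 2 peaks, with a promoter peak at percentiles 43.2 (EDL), 40.0 (Quad), 34.6 (Sol) and 31.1 (Dia). Emcn, a sialomucin of capillaries and veins, had 2, 4, 4 and 3, and its promoter annotation was met in 1 list only. Icam2 had 3, 2, 2 and 1 peaks, with a promoter peak in Sol alone at percentile 33.4. The EDL and Quad peaks that overlap it are annotated as 5' UTR and were at 20.5 and 20.8. Plvap, which forms the diaphragms of fenestrae, had 1, 4, 2 and 1 and no promoter peak. Esam had 1, 2, 1 and 0. Its intronic region 2218 bp from the TSS scored 9.72 in EDL, 15.2 in Quad and 9.56 in Sol, and its promoter was listed in Quad at percentile 68.2. The arterial connexin genes were the sparsest, since Gja4 had its promoter alone (50.8 in Quad, 38.2 in Sol, 29.6 in Dia) and Gja5 had a single intergenic peak in Quad at percentile 15.

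Of the secreted products, Vwf, the clotting carrier stored in endothelial granules, had 5, 5, 4 and 3 peaks. Its promoter was at percentile 11.9 in EDL, 49.4 in Quad and 9.81 in Sol. A region in its intron 6 (chr6:125573208-125573533) stood well above that, at 58.7, 82.1, 83.1 and 69.3. Nos3, the endothelial nitric oxide synthase, had 2, 1, 1 and 0 peaks, with its promoter (chr5:24364454-24364785) at 63.2, 72.6 and 57.8 in EDL, Quad and Sol. The second EDL peak of Nos3, upstream of the promoter, was at percentile 33.0.

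Transcription factor genes ranked highest among the roles with 6 or more genes. Their 43, 50, 42 and 26 peaks in EDL, Quad, Sol and Dia had median score percentiles of 56.1, 61.6, 55.7 and 52.0. The receptor peaks had medians of 37.02, 40.0, 38.2 and 29.6 in the same order. Klf2, a gene switched on by blood flow, carried the highest member peaks of all 4 lists at its promoter (chr8:72318815-72319111), with scores of 21.8, 27.1, 23.6 and 19.4 and percentiles of 96.4, 98.4, 97.6 and 94.1. Its intergenic region shown above, 23188 bp upstream, was at 95.8, 96.3, 95.7 and 89.8. The Ets1 promoter (chr9:32695801-32696150) was at 86.4, 92.7, 86.9 and 92.6. Klf2 and Ets1 are also used by leukocytes, and Klf2 held 4, 5, 4 and 4 peaks and Ets1 11, 11, 10 and 6.

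Erg and Fli1, both ETS factors of endothelium, held 8, 8, 6 and 3 and 7, 8, 6 and 3 peaks. Fli1 is also used by blood cells. The Fli1 promoter was at percentile 49.7 in EDL, 64.9 in Quad and 52.8 in Sol. Erg had promoter peaks 28 bp upstream in EDL (47.6) and 259 bp upstream in Sol (63.2), at places that do not overlap. Sox7, of the SOX factors that specify vessels, had 6, 6, 6 and 4 peaks and a promoter peak at 47.6, 63.0, 41.6 and 62.9. Sox17 had 3, 3, 4 and 2 peaks, none at its promoter, and its region 46875 bp upstream was at 75.8, 74.0, 74.7 and 56.8. Sox18 had 1, 2, 1 and 2 peaks, with a promoter peak in Dia alone at 42.9.

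Tal1, Lmo2 and Gata2, which blood-forming and endothelial cells share, each had fewer peaks than Erg, Fli1 or Sox7. Tal1 had 1 region, 3690 bp upstream, at percentile 47.6 in EDL, 63.0 in Quad and 55.3 in Sol. Lmo2 had 1, 3, 2 and 2 peaks, with promoter peaks in Quad, Sol and Dia between percentiles 27.7 and 50.8. Gata2 had 1, 3, 2 and 0 peaks, and its promoter was at 55.7 in Quad and 52.8 in Sol. Its EDL peak was intronic, at percentile 52.5, and its intergenic peaks were at 7.89 and 28.03 in Quad and 29.3 in Sol.

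**Figure D3:**
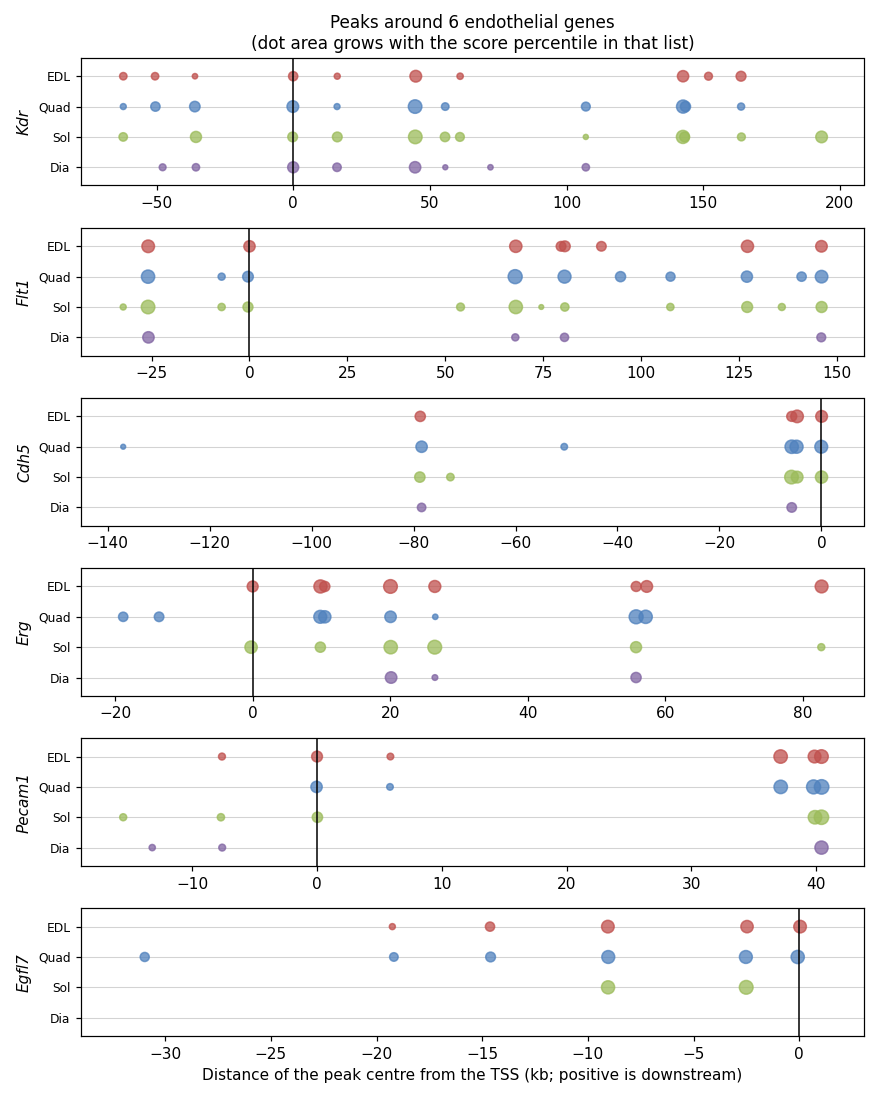
Peaks around Kdr, Flt1, Cdh5, Erg, Pecam1 and Egfl7 by distance from the TSS in kb (horizontal axis) for each muscle (rows), where dot area grows with the score percentile. Distal positions recur between muscles at Flt1, Erg and Pecam1, and the Dia row of Egfl7 is empty.

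The next question was where the peaks of vascular genes lie. Promoters held 12.5% of the member peaks for EDL (7.84% to 19.3%), 16.5% for Quad (11.5% to 23.0%), 16.7% for Sol (11.3% to 23.9%) and 16.7% for Dia (10.01% to 26.5%). Over all peaks the promoter share was 30.7%, 25.5%, 31.9% and 41.3%. Intergenic peaks made up 50.8%, 46.2%, 50.8% and 52.6% of the member peaks, against 29.9%, 31.7%, 30.1% and 26.8% of all peaks. The promoter share of members was thus below that of all peaks in each library, by the widest gap in Dia. The median member peak lay between 20328 bp (Quad) and 25298 bp (Sol) from the TSS, while over all peaks it ran from 3754 bp in Dia to 13561 bp in Quad.

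Not every such peak lies in the gene it is named for. Between 39.7% of the member peaks in Dia and 41.8% in Quad fell within the body of the member itself. Between 5 and 10 peaks per list fell inside another protein-coding gene. These were 14 peaks of Ptprb inside its neighbour Ptprr, 6 of Sox7 inside Pinx1, 5 of Icam2 inside Ern1, 4 of Plvap inside Ccdc194, 1 of Klf2 inside Eps15l1 and 1 of Angpt2 inside Mcph1. For those peaks the nearest TSS is that of the vascular gene, and whether they act on it was not tested.

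Score percentiles were then set against peaks of the same kind, because promoter peaks score higher than others in every list. The median percentile of member peaks in their whole list was 47.1 for EDL, 50.1 for Quad, 43.2 for Sol and 36.1 for Dia. Among promoters alone, member promoter peaks had median percentiles of 24.2, 19.9, 15.3 and 20.1. They lay below the median of all promoter peaks in 14 of 16 EDL cases, 22 of 26 Quad cases, 19 of 22 Sol cases and 10 of 13 Dia cases. The exceptions included the promoters of Klf2 and Ets1. Outside promoters, member peaks had median percentiles of 54.4, 55.0, 56.4 and 48.7 among peaks of that class, close to the middle. Open promoters of vascular genes hence scored low next to other open promoters, while their other peaks scored near the middle of their class. This split by class was made after seeing the data.

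**Figure D4:**
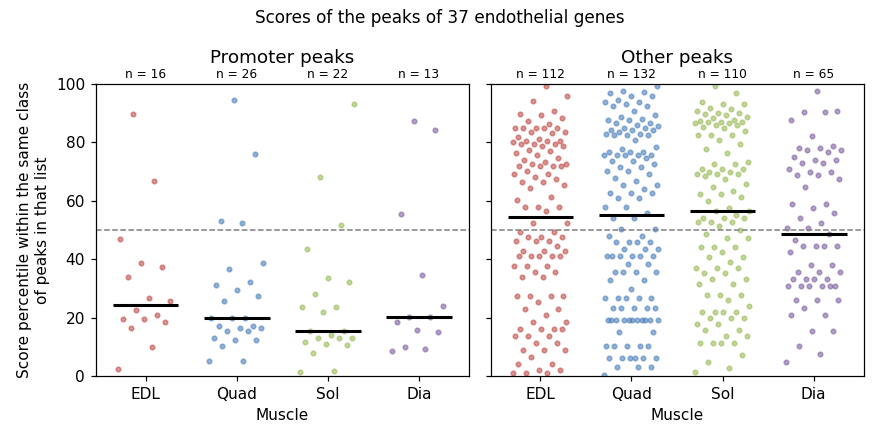
Score percentile of each member peak within its own class of peaks in that list, for promoter peaks (left) and other peaks (right). Points are peaks, black bars are medians and the dashed line marks the middle of all peaks of the class; the promoter medians lie between 15.3 and 24.2 and the others between 48.7 and 56.4.

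Sharing between muscles followed the same split. The member peaks merged into 221 regions of 53883, and 51 of them, or 23.1% (18.0% to 29.1%), had a peak in all 4 lists, against 26.9% of all regions. At promoters, 7 of 33 member regions were in all 4 lists, a share of 21.2% (10.7% to 37.8%), while it was 66.1% of all promoter regions. These 7 were the promoters of Kdr, Tie1, S1pr1, Cldn5, Ets1, Sox7 and Klf2. Outside promoters, 44 of 188 member regions were in all 4 lists, a share of 23.4% (17.9% to 30.0%) against 16.0% of all such regions. Another 31 member regions, or 14.03%, were in EDL, Quad and Sol but not in Dia, against 8.09% of all regions. The Cdh5, Pecam1, Nos3, Fli1, Vwf and Ptprb promoters were among these.

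For each pair of muscles, the members with unequal numbers of peaks were counted by direction. With whole lists, 5 members had more peaks in EDL than in Quad and 23 the reverse, and over all such genes 20.1% had more in EDL. Between EDL and Sol, 14 members had more in each, with 54.2% of all genes on the EDL side. EDL had more than Dia for 24 members and fewer for 6 (75.4% of all genes), and Quad more than Sol for 21 and fewer for 4 (78.6%). Quad had more than Dia for 34 members and fewer for 0 (88.1%), and Sol more than Dia for 27 and fewer for 3 (73.8%). These numbers lean the way list length does for all genes.

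With 20000 peaks per list, the lean was smaller. EDL then had more than Quad for 8 members and fewer for 11 (49.4% of all genes had more in EDL). EDL had more than Sol for 6 and fewer for 13 (49.6%), EDL more than Dia for 13 and fewer for 13 (46%), and Quad more than Sol for 10 and fewer for 12 (49.7%). Quad had more than Dia for 14 and fewer for 10 (46.1%). Sol had more than Dia for 17 members and fewer for 8, or 68.0% of the unequal ones (48.4% to 82.8%), against 47.3% of all genes. Among them Kdr had 8 peaks in Sol and 6 in Dia, S1pr1 had 8 and 6, and Erg had 5 and 2.

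At regions with a peak in both lists of a pair, the scores themselves could be compared. The log2 ratio of scores was centred on the median over all regions that the pair shares, and each ratio has a counting error from its tags. This comparison was added after seeing the data. The median of member regions was 0.01 for EDL over Quad (98 regions), -0.07 for EDL over Sol (89), 0.07 for EDL over Dia (56) and -0.04 for Quad over Dia (65). It was -0.17 for Quad over Sol (101 regions) and 0.22 for Sol over Dia (61). In these libraries, vascular regions were thus slightly higher in Sol than in Quad or Dia once the typical shared region was set to 0. With regions outside promoters only, centred on their own median, these values were -0.15 and 0.16. The muscles share libraries between pairs, so the 6 values are not independent.

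Regions that differed by more than counting error were counted in each direction. Between Sol and Dia, 12 of 61 member regions were higher in Sol and 2 in Dia, and the shares over all regions were 11% and 8.26%. Between Quad and Sol, 4 of 101 were higher in Quad and 13 in Sol (9.05% and 9.47% of all regions). Between EDL and Sol, 7 of 89 were higher in EDL and 13 in Sol (9.79% and 9.03%). Between EDL and Quad the numbers were 7 and 7 of 98 (7.6% and 8.3%), and between EDL and Dia 7 and 5 of 56 (12.8% and 9.02%). Between Quad and Dia, 6 of 65 were higher in Quad and 0 in Dia (10.7% and 8.38%). Most member regions in each pair therefore did not differ beyond the counting error of 1 library each.

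The widest differences were at Erg and Flt1. An intron 2 region of Erg, 26465 bp from the TSS (chr16:95432712-95432986), scored 7.89 (EDL), 3.97 (Quad), 11.9 (Sol) and 4.43 (Dia). Sol and EDL were high and Quad and Dia low. The centred log2 ratio of Quad over Sol was -1.72 ± 0.29 (counting SE), a 3.29-fold difference, and that of Sol over Dia was 1.37 ± 0.25. A second Erg region, in intron 3 and 55767 bp from the TSS, ran another way, with 5.96 (EDL), 12.3 (Quad), 7.07 (Sol) and 6.65 (Dia). Quad alone was high there, with a ratio of EDL over Quad of -0.91 ± 0.24. The same gene thus had 1 region highest in Sol and another highest in Quad.

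The Flt1 region in intron 10 shown above scored 8.37 (EDL), 12.7 (Quad), 10.6 (Sol) and 4.94 (Dia). Dia was the low library, and the ratio of Quad over Dia was 1.17 ± 0.25. The peak of Dia was centred between those of Quad and of EDL and Sol, so the 4 peaks cover partly different bases. The Cdh5 region shown above scored 5.96 (EDL), 10.2 (Quad), 11.4 (Sol) and 6.14 (Dia), and Quad and Sol were high. Its ratio of EDL over Sol was -0.92 ± 0.23. An Emcn region 190489 bp upstream was not listed in EDL and scored 4.87 (Quad), 9.08 (Sol) and 4.63 (Dia). A Klf2 region 12737 bp downstream was lowest in EDL, with 5.10, 8.20, 10.2 and 8.26. An intergenic Ets1 region 91804 bp from its TSS was lowest in Dia, with 14.1, 14, 10.5 and 7.35.

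Motif letters were counted in the 200-bp windows of all regions, on both strands. Outside promoters, the ETS letters were in 46 of 188 member windows, or 24.5% (18.9% to 31.1%), and in 15.2% of all 42117 windows. SOX letters (CCATTGT) were in 14 member windows, or 7.45% (4.49% to 12.1%), and in 2.56% of all. GATA letters (AGATAA) were in 21, or 11.2% (7.42% to 16.5%), and in 6.76% of all. The run AACAGGAA, in which a forkhead and an ETS site overlap and which shares CAGGAA with the ETS letters, was in 10, or 5.32% (2.91% to 9.51%), and in 2.91% of all. The intervals take regions as independent, though 1 gene can supply many: Kdr had 18 and Flt1 17 of the 221 member regions. With that limit, the shares for the 3 families of endothelial factors were above those of all regions. This is a description of letters near genes chosen for endothelial use, and no factor was measured.

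The letters of other factors lay nearer to the shares over all regions. RBPJ letters (GTGGGAA), of the Notch pathway, were in 6.38% of member windows and 4.99% of all. AP-1 letters (TGACTCA or TGAGTCA) were in 8.51% and 8.93%. Those of MEF2, a muscle factor, written CTA and TAG with 4 bases between, were in 3.19% (1.47% to 6.79%) and 5.25%. At promoters the ETS letters were in 7 of 33 member windows, or 21.2%, and in 23.5% of all promoter windows. Mean GC content outside promoters was 51.6% in member windows and 51.7% in all.

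**Figure D5:**
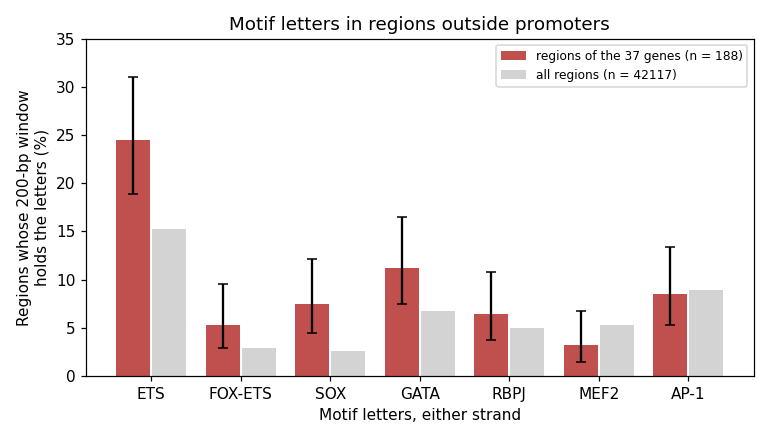
Share of regions outside promoters, in percent, whose 200-bp window holds each set of motif letters. Red bars are 188 regions of the 37 genes, with 95% Wilson intervals that take regions as independent, and grey bars are all 42117 regions. For ETS, SOX and GATA letters the member intervals, around 24.5%, 7.45% and 11.2%, lie above the share over all regions, while the MEF2 interval around 3.19% includes it.

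The ETS share was highest at member regions listed in 3 or 4 muscles. Outside promoters it was 13.9% of 79 member regions in 1 list, 18.2% of 33 in 2 lists, 43.8% of 32 in 3 lists and 34.1% of 44 in 4 lists. Over all regions the share was 14.04%, 15.2%, 16.2% and 18.3%. The intervals were 28.2% to 60.7% for 3 lists and 21.9% to 48.9% for 4, above the shares of all such regions. They too take regions of the same gene as independent. Member regions in 1 list had a share next to that of all regions in 1 list. This count was added after seeing the data.

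Gene lists for other cell types show what else the libraries hold. A list of 40 other vascular genes, such as Epas1, a hypoxia factor with 13, 11, 13 and 9 peaks, and the Notch ligand gene Jag1 with 8, 12, 10 and 3, held 124 EDL peaks, 161 Quad peaks, 112 Sol peaks and 75 Dia peaks. That was 0.411%, 0.399%, 0.389% and 0.348% of the lists, so Sol did not lead there. For 10 mural cell genes the numbers were 13, 22, 12 and 9, for 10 fibroblast genes 31, 38, 17 and 9, for 10 leukocyte genes 9, 13, 4 and 4, and for 6 erythroid genes 2, 3, 2 and 2. The 10 muscle fibre genes held 43, 46, 40 and 25 peaks, and 5 satellite cell genes 10, 16, 9 and 6. Dia, the shortest list, had the lowest or joint lowest number for each of these gene lists. Of the gene lists in this paragraph, only the other vascular, fibroblast and satellite cell ones had their lowest share of the peaks in Dia. The leukocyte share was 0.0185% in Dia and 0.0139% in Sol, and the muscle fibre share 0.116% in Dia and 0.114% in Quad. Fibroblast genes fell from 0.103% of the EDL list (0.072% to 0.146%) to 0.042% of the Dia list (0.022% to 0.079%), while the member share changed little. The part of these other cell types in the vascular values was not tested.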

How the data were processed

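ATAC-seq was measured in 4 muscles, 1 library each. The authors aligned 42-bp read pairs to mm10 with Bowtie2 2.2.6, kept 1 tag per position, and called and annotated peaks in each library with HOMER (its version is not given in the sources used here). The transposase offset and the removal of mitochondrial reads are not stated. Figure legends give 1 to 2 samples per group, without saying how many each deposited library pools. The deposited score is a signal: the tags at a peak scaled by library size, with a worth per tag of 0.0956 to 0.128. Peak width was fixed per library, from 188 bp in Quad to 232 bp in Dia, so wider peaks can hold more tags.

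From these lists, peaks naming a member were counted. Scores were ranked within each list, regions were merged at 1 bp overlap, and motif letters were read from GRCm38, inside which all peaks end. All 37 symbols matched RefSeq and GENCODE. Shares carry Wilson intervals, differences Newcombe intervals, and score ratios a counting SE from the tags. Python 3.11.15, pandas 2.3.3 and SciPy 1.17.1 were used, and the counting of regions and intervals was tested on simulated data. The members, the gene lists and the motifs were chosen with earlier results of these data known. All members are named with their peak numbers. The naming rule asked for every peak of those with a promoter peak or with peaks in 1 to 3 lists; for brevity, values are given for promoter peaks and some others.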

Additional observations from a re-analysis of the deposited data

How the results depend on the processing

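No paired analysis was possible because each muscle has a single library. Of 119 values under other settings, for 36 results, 93 moved less than their interval (counts of genes, less than 1.5 times), 25 moved more and 1 reversed. The alternatives for the score ratios were chosen after seeing the data, and all of these stayed inside the main intervals.

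The value counted as reversed was that of Quad against Sol with 20000 peaks per list. There 45.5% of the unequal members (26.9% to 65.3%) had more in Quad instead of 84.0%. That interval includes 50%, and 49.7% of all genes had more in Quad, so no lean to Sol was resolved. Among unequal members the share was 42.1% for EDL over Quad, 31.6% for EDL over Sol, 50% for EDL over Dia, 58.3% for Quad over Dia and 68.0% for Sol over Dia. The median percentile was 37.6 in Quad and 37.5 in Sol. In the upper 50% of each list it was 32.9 in EDL, 38.1 in Quad and 15.2 in Dia. The Dia share was then 0.222%, 17 members had a peak in Dia, and 95% and 100% of unequal members had more in EDL and in Sol than in Dia. These cut lists stay unequal in length, and the same values over all genes were not computed for them. In the whole lists, 75.4% and 73.8% of all genes with unequal numbers had more in EDL and in Sol than in Dia. Ranks in shortened lists are lower by construction.

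Vegfa, Angpt1, Apln, Ets1, Fli1, Klf2, Tal1, Lmo2 and Gata2 were set aside as genes that other muscle or blood cells also use. Without these 9 genes, the member shares were 0.325% (EDL), 0.290% (Quad), 0.344% (Sol) and 0.269% (Dia). Within 50 kb of the TSS they were 0.305%, 0.278%, 0.309% and 0.255%, and promoters held 23.2% of member peaks in Quad and 24.7% in Sol. Fewer peaks are counted in both settings. At 50% reciprocal overlap, 13.6% of member regions were in all 4 lists. The share over all regions was not computed for that setting, so the contrasts with all regions hold for 1 bp overlap only.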

Other observations

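The 6 lymphatic endothelial genes held fewer peaks per gene than the 37 members in each muscle, for example 1.5 against 4.27 for Quad. The number per gene was not computed over all genes. With 40337 Quad peaks and 21900 protein-coding genes, the members stand above the average gene, so this contrast shows no shortage at lymphatic genes. Quad listed a peak for 4 of these 6 genes, EDL and Sol each for 3, and Dia for 2. Among all protein-coding genes, the share with a peak ranged from 51.2% (Dia) to 60.2% (Quad). With 6 genes, a lower share than that cannot be resolved. Peaks of the 6 genes numbered 4 (EDL), 9 (Quad), 6 (Sol) and 2 (Dia). Prox1, which specifies lymphatic cells, had 1, 1, 3 and 1 peaks, and Pdpn, which fibroblasts also express, had 2, 5, 1 and 1. Lyve1, a hyaluronan receptor of lymphatic vessels and some macrophages, had 1 peak, in Quad. Which cells the peaks of these genes, Prox1 included, come from was not tested.

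Among mural cell genes, Cspg4, a proteoglycan of pericytes, had 3, 6, 1 and 2 peaks. Abcc9 and Notch3, a channel subunit and a Notch receptor of mural cells, each had 2 peaks in every muscle. Myh11, the smooth muscle myosin gene, had 3, 4, 1 and 1. These were the mural genes with the most peaks. Acta2 had 1, 3, 2 and 0, Kcnj8 0, 1, 2 and 1, Pdgfrb 1, 1, 0 and 1, and Rgs5 0, 2, 1 and 0. Cnn1 had 1, 0, 1 and 0, and Tagln had 1 peak, in Quad. Among leukocyte genes, Laptm5 had 2, 3, 2 and 3 peaks and Spi1 had 2, 2, 1 and 1, the most of that list. Cd68, Itgam and Cd14 had none in any muscle. Ptprc, Adgre1, Tyrobp and Fcer1g had none in Sol or Dia, and Csf1r had 1, 2, 1 and 0.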
